A study of Mus musculus with 6 samples.

Results

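Selectin ligands and adhesion molecules of the blood stem cell surface were followed here through 9 genes, Selplg, Cd44, Podxl, Cd47, Alcam, Jam2, Jam3, Vcam1 and Icam1, in the bone marrow of mice given granulocyte colony-stimulating factor (G-CSF). The genes were chosen as a family, 1 probeset each, and make up 9 of the 14994 genes tested, as all of them passed the filter on dim probesets. None of the 9 passed the test over all genes, with limma adjusted p-values from 0.749 to 1. Selplg and Cd44 had higher values in all 3 G-CSF arrays than in all 3 PBS arrays, with means 1.60-fold and 1.35-fold higher. Alcam, Jam3, Podxl, Jam2, Cd47 and Icam1 had lower means with G-CSF, each with overlap between the groups, and the mean of Vcam1 was the same to within 0.0006 on the log2 scale.

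RNA was measured on the MoGene 1.0 ST platform. The cells were KSL SLAM cells, a fraction of marrow rich in haematopoietic stem cells, sorted for c-Kit, Sca-1 and CD150 and against lineage markers, CD48 and CD41. The G-CSF group (3 arrays) received G-CSF for 7 days at 125 mcg/kg in 2 subcutaneous injections per day, and the control group (3 arrays) received PBS for 7 days. Each array came from its own pool of 5 to 10 mice, so the spread between arrays is the spread between pools and not between animals. The labels name no strain, sex or age. Median intensities ran from 56.2 to 61.7, and rank correlations (Spearman) over the tested genes from 0.861 to 0.895 inside a group and from 0.836 to 0.892 across groups.

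These molecules hold stem and progenitor cells in the marrow and guide them through vessel walls. Selectins on endothelium, platelets and leukocytes bind sugar-decorated mucins such as PSGL-1, which allows rolling, and integrins then bind immunoglobulin-type molecules such as VCAM-1, ICAM-1 and the JAMs, which allows firm arrest. G-CSF is the agent used in clinical practice to mobilise stem cells from marrow into blood, and proteases of neutrophils are known to cleave several of these proteins in the marrow. That cleavage acts on protein and is not seen by an array of RNA.

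Of the markers that define the gate, Kit lay between 8.63 and 10.28 on the log2 intensity scale and Slamf1, which encodes CD150, between 5.95 and 6.65. Cd48, which was gated against, ran from 4.61 to 6.14, on both sides of the limit of 5.152 below which probesets were left out, and Itga2b, which encodes CD41, ran from 6.18 to 6.51. Ly6a, which encodes Sca-1, had 0 probesets with a single gene symbol and is not analysed here. Kit differed by -0.98 between G-CSF and PBS (SE 0.23, limma adjusted p = 0.374), with all G-CSF arrays below all PBS arrays.

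Promoter sequence was at hand for 4 of the 9 genes, from RefSeq on GRCm38.p6, as 250 bases before to 50 bases after the annotated start. Shown are Cd44 (higher in every G-CSF array), Icam1 (means closer than the spread between arrays) and Alcam (lower mean), so that the 3 patterns can be set beside their start regions. Capitals mark 2 motifs, TTCNNNGAA, the palindrome that STAT factors bind, and GGAANTTCC, a palindromic form of the NF-kB site. Each motif reads the same on both strands, and the 2 did not overlap in these sequences.
Cd44, chr2:102901616-102901915, minus strand: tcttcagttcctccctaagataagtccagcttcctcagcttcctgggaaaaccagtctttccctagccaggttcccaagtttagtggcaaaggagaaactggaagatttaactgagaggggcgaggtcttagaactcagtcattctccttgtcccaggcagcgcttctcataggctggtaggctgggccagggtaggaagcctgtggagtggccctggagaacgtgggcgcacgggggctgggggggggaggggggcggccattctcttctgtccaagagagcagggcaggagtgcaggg
Icam1, chr9:21015690-21015989, plus strand: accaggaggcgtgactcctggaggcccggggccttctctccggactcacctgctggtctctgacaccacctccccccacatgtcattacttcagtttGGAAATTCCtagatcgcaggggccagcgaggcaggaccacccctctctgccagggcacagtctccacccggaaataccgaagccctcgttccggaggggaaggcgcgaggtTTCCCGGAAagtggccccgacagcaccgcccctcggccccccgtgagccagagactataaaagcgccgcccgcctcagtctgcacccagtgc
Alcam, chr16:52453032-52453331, minus strand: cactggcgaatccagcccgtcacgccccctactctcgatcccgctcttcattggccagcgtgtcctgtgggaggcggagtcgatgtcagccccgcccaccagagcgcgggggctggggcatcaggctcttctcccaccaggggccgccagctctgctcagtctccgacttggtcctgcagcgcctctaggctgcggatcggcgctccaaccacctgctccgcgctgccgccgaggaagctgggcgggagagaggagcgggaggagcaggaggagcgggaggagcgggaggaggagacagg
TTCNNNGAA stood once in the Icam1 window, starting 42 bases before the gene's start, and GGAANTTCC stood once, starting 153 bases before it. Of 32851 mouse promoter windows of 300 bases, 8.3% held TTCNNNGAA, 0.928% held GGAANTTCC and 0.116% held both. Neither motif was found in the windows of Cd44, Alcam and Cd47, which says only that these letters are not there.

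The first question was whether ligands of selectins differed between the stem cell fractions of treated and control mice. Selplg encodes PSGL-1, the mucin on leukocytes and progenitors that binds selectins. Its log2 intensity was 7.78, 7.78 and 7.88 in PBS replicates 1 to 3, and 8.17, 9.03 and 8.26 in G-CSF replicates 1 to 3. The 3 PBS arrays lay close together, all 3 G-CSF arrays lay above them, and G-CSF replicate 2 stood well above the other two of its group. The difference was 0.67 on the log2 scale (SE 0.25, 95% interval 0.10 to 1.25), with a limma unadjusted p of 0.0279 and an adjusted p of 0.749 over all genes. Without G-CSF replicate 2 the difference was 0.40 (SE 0.17, limma unadjusted p = 0.0518, adjusted p = 0.797). The unadjusted p was also above 0.05 without PBS replicate 1 (0.067), 2 (0.0678) or 3 (0.0515) in the same limma fit. In sorted cells in bulk, more cells of a type and more RNA per cell cannot be told apart.

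Cd44 encodes the main receptor for hyaluronan, and in human progenitors a sugar-modified form of CD44 also binds E-selectin. Its log2 intensity was 7.39, 7.36 and 7.13 with PBS and 7.83, 7.92 and 7.42 with G-CSF. Every G-CSF array was above every PBS array, although the lowest G-CSF value, in replicate 3, exceeded the highest PBS value by little. The difference was 0.43 (SE 0.19, 95% interval -0.01 to 0.87, limma adjusted p = 0.847). The unadjusted p was 0.054 with all arrays and 0.0184 without G-CSF replicate 3, where the limma difference was 0.58 (adjusted p = 0.684).

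Podxl encodes podocalyxin, a sialomucin related to CD34 that carries selectin ligands on specialised endothelium. Its log2 intensity was 6.10, 6.46 and 6.24 with PBS and 5.88, 6.18 and 5.69 with G-CSF, and only G-CSF replicate 2 reached the range of the PBS arrays. The difference was -0.35 (SE 0.19, 95% interval -0.79 to 0.10, limma adjusted p = 0.921). Leaving out G-CSF replicate 3 gave -0.23, and the groups did not overlap once PBS replicate 1 (-0.43) or G-CSF replicate 2 (-0.48) was left out. The mucin-type ligands therefore did not share a direction, with Selplg having a positive difference and Podxl a negative one, neither past the threshold.

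**Figure D1:**
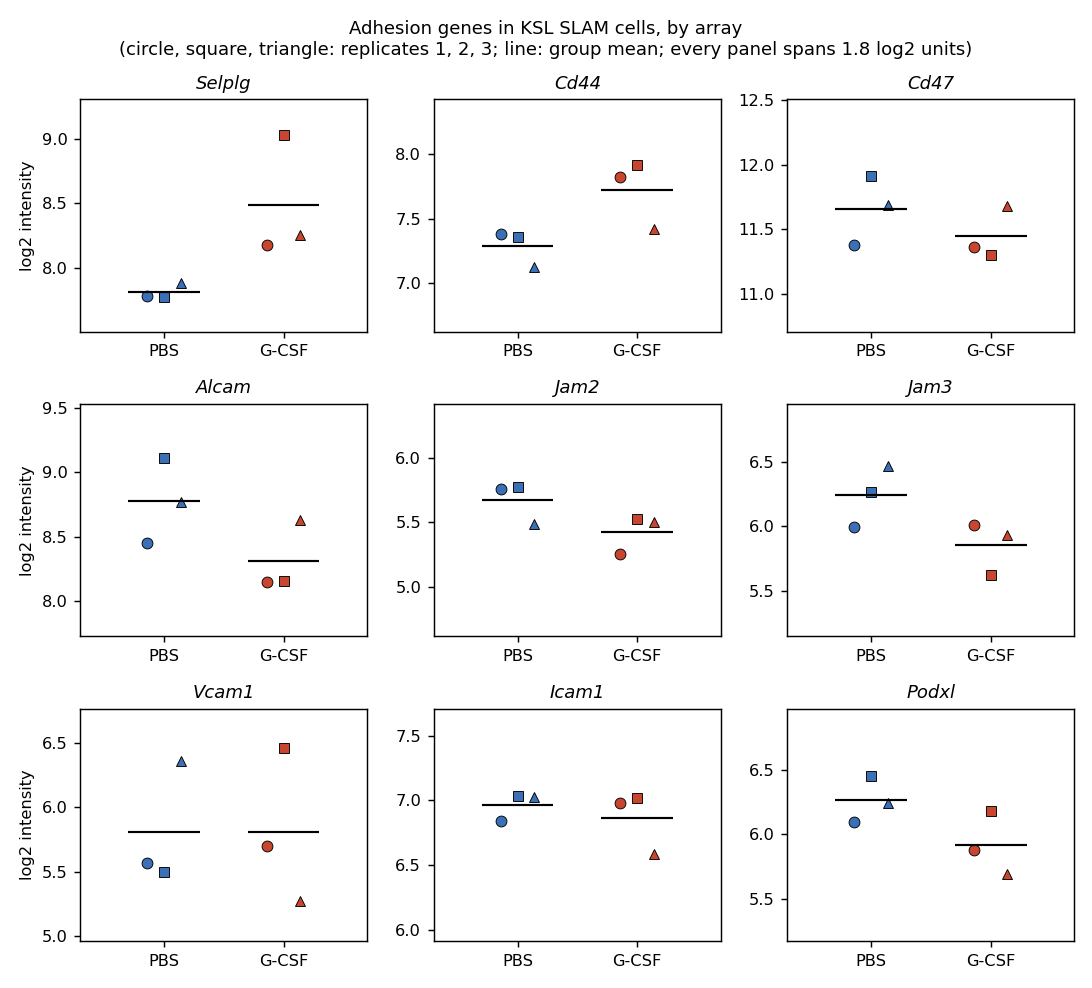
Log2 intensity (vertical axis) of the 9 adhesion genes in the 3 PBS arrays (blue) and the 3 G-CSF arrays (red). Symbols mark replicates 1 to 3, lines mark group means, and each panel spans the same number of log2 units. The groups are apart in the panels of Selplg and Cd44 and overlap in the other 7.

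Across the 9 genes, 2 had G-CSF arrays wholly above PBS arrays, where 5.77% of all genes tested did, and 0 had them wholly below, where 5.05% did. At an unadjusted p under 0.05, 1 was higher (Selplg, against 2.73% of all genes) and 0 were lower (against 3.3%). At an adjusted p under 0.05, 0 were higher (against 0.0267%) and 0 lower (against 0%). Negative differences were found in 6 of the 9, where 49.7% of all genes had one, and the median difference was -0.21, where that of all genes was 0.0016. The differences ran from -0.47 to 0.67, and the middle 90% of all genes tested lay between -0.56 and 0.45, so that Selplg was the only member outside this band.

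**Figure D2:**
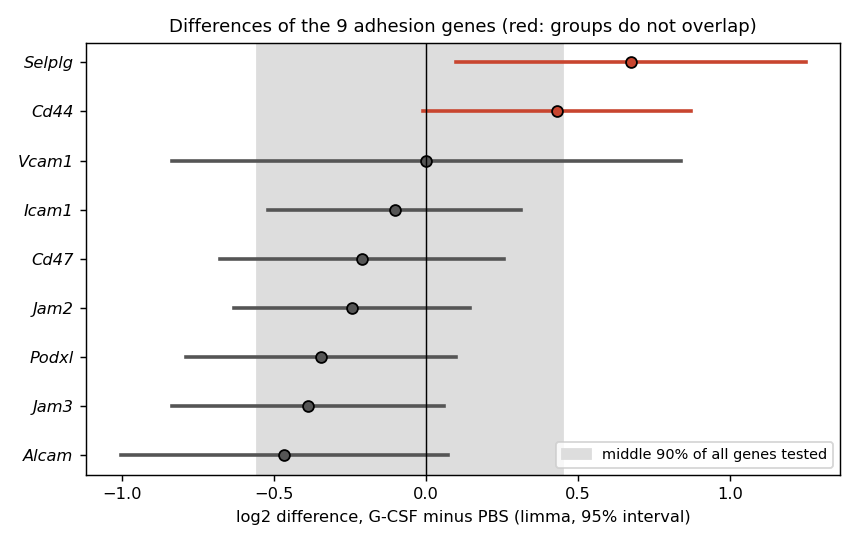
Log2 difference, G-CSF minus PBS (horizontal axis), of each adhesion gene, with limma's 95% interval as a bar. The grey band holds the middle 90% of all genes tested. Selplg (0.67) lies outside the band, and its interval alone of the 9 excludes 0 before adjustment for multiple tests.

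Markers of neutrophils and their progenitors were also higher in the G-CSF arrays, although the gate removes lineage-positive cells. All 14 neutrophil markers passed the filter on dim probesets, and 13 were higher in every G-CSF array than in every PBS array (against 5.77% of all genes). Of the 14, 0 passed at an adjusted p under 0.05. Their summed intensity ran from 9607 to 16847 with PBS and from 29014 to 35678 with G-CSF. Of 8 granulocyte-monocyte progenitor markers, 8 were higher in every G-CSF array (against 5.77% of all genes), and 0 passed at an adjusted p under 0.05. The summed intensity of these 8 ran from 764 to 1109 with PBS and from 2373 to 6277 with G-CSF. The mean of both lists was highest in G-CSF replicate 2 (9.03 on the log2 scale for the progenitor list, against 8.08 and 7.90 in replicates 1 and 3), which was also the array with the highest Selplg and Cd44. In the other arrays the order depended on the list and the gene. With PBS the mean of the neutrophil list was 7.82, 8.74 and 8.57, lowest in replicate 1, where Cd44 was highest of its group. The progenitor list, at 6.58, 6.43 and 6.95 with PBS, was highest in replicate 3, as was Selplg. With G-CSF the neutrophil list was at 9.60 in replicate 1 and 9.75 in replicate 3. Selplg was also higher in replicate 3 than in replicate 1. Cd44 and the progenitor list were lower in replicate 3 than in replicate 1. The part of these cells in the values of Selplg and Cd44 was not tested.

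By a rule of likeness, namely the smallest root mean square difference between mean-centred log2 values over the 6 arrays, the genes nearest to Selplg were Snx24 (0.0965), the secreted protease inhibitor Slpi (0.0976) and the DNA primase subunit Prim2 (0.108). The rule picks genes that follow Selplg over these same arrays, so a shared peak is a product of the choice. Each had its highest value in G-CSF replicate 2, at 7.06 for Snx24, 7.73 for Slpi and 7.11 for Prim2. None of the 3 was among the genes past the adjusted threshold.

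**Figure D3:**
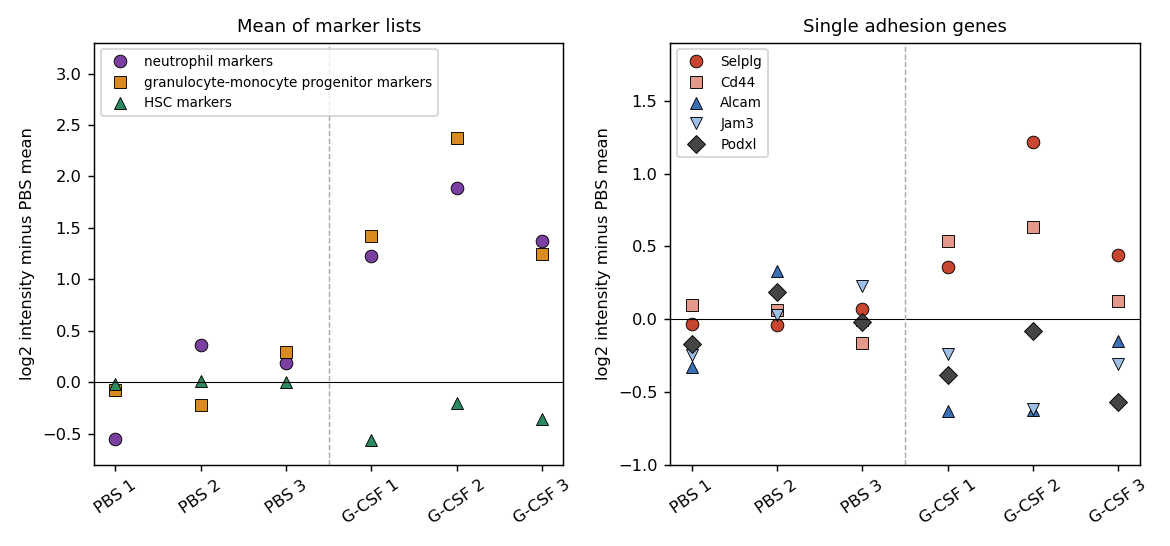
Left, mean log2 intensity of the neutrophil, granulocyte-monocyte progenitor and HSC marker lists in each array, less the mean of the PBS arrays. Right, the same for Selplg, Cd44, Alcam, Jam3 and Podxl. Granulocytic lists, Selplg and Cd44 are highest in G-CSF replicate 2.

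The second group is made of molecules that bind across cell contacts. Alcam encodes CD166, an immunoglobulin-type molecule that binds itself and CD6 and is found on stem cells and on cells of the bone-forming niche. Its log2 intensity was 8.45, 9.11 and 8.77 with PBS and 8.15, 8.16 and 8.63 with G-CSF. G-CSF replicates 1 and 2 were lower than any PBS array, and replicate 3 lay between PBS replicates 1 and 3. This was the most negative difference of the 9 genes, at -0.47 (SE 0.23, 95% interval -1.01 to 0.07, limma adjusted p = 0.863). Leaving out PBS replicate 1 or G-CSF replicate 3 gave -0.63, with no overlap between the groups, and leaving out PBS replicate 2 gave -0.30.

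The genes nearest to Alcam by the same measure were the helicase gene Dhx36 (0.0484), Cuedc2 (0.0654) and the ribosomal protein gene Rpl24 (0.0776). Their differences, close to that of Alcam through the rule that chose them, were -0.47 for Dhx36, -0.38 for Cuedc2 and -0.38 for Rpl24. None of these genes passed the adjusted threshold.

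Jam2 and Jam3 encode JAM-B and JAM-C, junctional molecules that bind each other. In mice, JAM-C is known from stem cells and JAM-B from the stroma they contact. Jam3 was at 5.99, 6.27 and 6.47 with PBS and at 6.01, 5.63 and 5.93 with G-CSF. Its groups overlapped through 1 pair only, as G-CSF replicate 1 narrowly exceeded PBS replicate 1, and the difference was -0.39 (SE 0.19, 95% interval -0.84 to 0.06, limma adjusted p = 0.863). With quantile normalization again or with arrays centred on the median, all G-CSF arrays of Jam3 lay below all PBS arrays. So they did once PBS replicate 1 (-0.51) or G-CSF replicate 1 (-0.46) was left out. Jam2 was at 5.76, 5.77 and 5.48 with PBS and at 5.26, 5.52 and 5.50 with G-CSF, a difference of -0.24 (SE 0.17, limma adjusted p = 0.94). Leaving out G-CSF replicate 1 gave -0.16 for Jam2, and leaving out PBS replicate 3 gave -0.34, with all G-CSF arrays below the remaining PBS arrays. With a mean of 5.55, Jam2 lay nearest of the 9 to the limit of 5.152. Both partners of the pair thus had lower means with G-CSF, and the intervals of both included 0.

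Cd47 encodes a protein that binds SIRP alpha on macrophages and keeps a cell from being engulfed, and it also binds thrombospondin. It had 2 probesets. The brighter, annotated to a cDNA clone, was at 11.38, 11.91 and 11.69 with PBS and at 11.36, 11.30 and 11.68 with G-CSF. The difference was -0.21 (SE 0.20, 95% interval -0.68 to 0.25, limma adjusted p = 0.966), with overlap between the groups. Leaving out PBS replicate 2 gave -0.08, and leaving out PBS replicate 1 gave -0.35. The groups did not overlap once PBS replicate 1 or G-CSF replicate 3 (-0.33) was left out. The dimmer, annotated to the RefSeq transcript, was at 10.04, 10.20 and 10.70 with PBS and at 10.20, 10.22 and 10.37 with G-CSF, a difference of -0.05. The 2 probesets shared the sign and not the size, and with their mean in place of the brighter one the difference was -0.13.

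Markers of stem cells were measured beside the genes of lower mean. Of 11 measured HSC markers, 0 passed at an adjusted p under 0.05. At an unadjusted p under 0.05, 2 were lower (Kit and Tek, against 3.3% of all genes). Negative differences were found in 10 (against 49.7% of all genes), and 3 were lower in every G-CSF array (Kit, Tek and Gata2, against 5.05%). Their summed intensity ran from 4932 to 5389 with PBS and from 3691 to 4579 with G-CSF, without overlap. That sum is weighted to bright markers, among them Kit (-0.98), which separated the groups. Meis1 (-0.06) and Hlf (-0.16), also bright, overlapped between the groups. The mean log2 intensity of the list, which weighs each marker alike, ran from 7.98 to 8.02 with PBS and from 7.44 to 7.81 with G-CSF. The mean of this list was lowest in G-CSF replicate 1, as was Jam2. Alcam and the dimmer Cd47 probeset were about equally low in G-CSF replicates 1 and 2. Jam3 and the brighter Cd47 probeset were lowest in replicate 2, and Podxl was lowest in replicate 3. Of 8 tested megakaryocyte markers 7 had negative differences (against 49.7% of all genes), and 0 passed at an adjusted p under 0.05. The most negative were Pf4 (-1.92) and Mmrn1 (-1.52), while Itga2b differed by -0.16 with overlap. Itgb3 went the other way and was higher in every G-CSF array (0.45). The summed intensity of the megakaryocyte list ran from 708 to 931 with PBS and from 514 to 538 with G-CSF. Of 4 tested erythroid markers 3 had negative differences, with sums of 318 to 439 over all measured markers with PBS and 313 to 316 with G-CSF. Summed lymphocyte markers overlapped, at 405 to 502 with PBS and 434 to 540 with G-CSF. The part of these cell types in the values of Alcam, Jam3, Podxl, Jam2 and Cd47 was not tested.

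Vcam1 and Icam1 are the vessel and stroma ligands at which integrins arrest cells. VCAM-1 binds the integrin alpha4 beta1 and is known from marrow stroma, endothelium and macrophages. Its log2 intensity was 5.57, 5.50 and 6.36 with PBS and 5.70, 6.46 and 5.27 with G-CSF. Each group held 1 high array, PBS replicate 3 and G-CSF replicate 2, and the other four lay between 5.27 and 5.70. The difference was 0.0006 (SE 0.36, 95% interval -0.84 to 0.84, limma adjusted p = 1), and the residual spread of Vcam1 exceeded that of 88.8% of all genes tested. An interval of this width includes a difference of the size measured for Selplg in either direction. The sign depended on the arrays, with -0.32 without G-CSF replicate 2 and 0.28 without PBS replicate 3.

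Markers of the cells that VCAM-1 is known from were measured too. Of 10 stromal markers 7 passed the filter, of 10 endothelial markers 8 did and of 10 monocyte and macrophage markers 7 did. Summed stromal intensity ran from 521 to 588 with PBS and from 515 to 689 with G-CSF, and summed endothelial intensity from 511 to 556 and from 534 to 558. Summed monocyte and macrophage intensity ran from 534 to 567 with PBS and from 592 to 775 with G-CSF, without overlap. Its single markers were not alike. Of the 7 tested, 3 were higher in every G-CSF array (against 5.77% of all genes), Ccr2 (0.86), Cd14 (0.44) and Csf1r (0.31). Cd68 (0.35), C1qa (0.09), C1qb (-0.06) and C1qc (-0.20) overlapped between the groups. At an adjusted p under 0.05, 0 of this list passed. The part of these cells in the values of Vcam1 was not tested.

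ICAM-1 binds the beta2 integrins LFA-1 and Mac-1 and is known as a target of NF-kB. Icam1 was at 6.84, 7.04 and 7.02 with PBS and at 6.98, 7.02 and 6.59 with G-CSF. All arrays but G-CSF replicate 3 lay between 6.84 and 7.04, and that array lay below them. The difference was -0.10 (SE 0.18, 95% interval -0.52 to 0.31, limma adjusted p = 0.972), and it was 0.034 without G-CSF replicate 3. The Icam1 window printed above, with both motifs, thus belongs to a gene whose means differed by less than the spread between arrays.

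**Figure D4:**
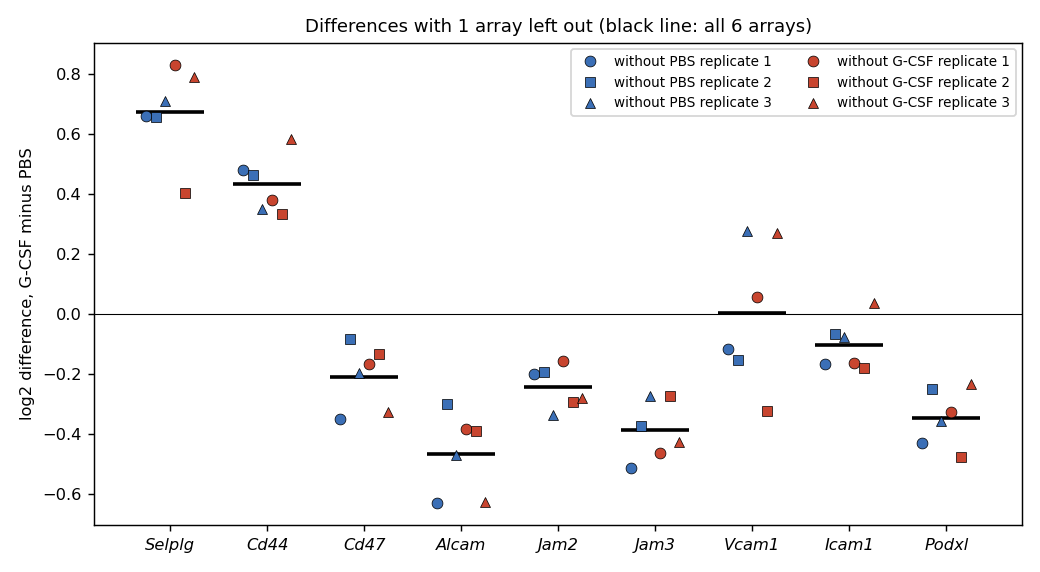
Log2 difference, G-CSF minus PBS (vertical axis), of each adhesion gene with all arrays (black line) and with each array left out (symbols). Selplg drops from 0.67 to 0.40 without G-CSF replicate 2, and Vcam1 and Icam1 cross 0.

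Genes that work with these molecules were described through 8 lists holding 88 tested genes, of which 0 passed at an adjusted p under 0.05. At an unadjusted p under 0.05, 8 were higher (against 2.73% of all genes) and 2 lower (against 3.3%). Their differences are values and not calls. Among selectins and other selectin ligands, 6 genes were tested with a median of 0.0024. The sialomucin Cd164 was higher in every G-CSF array (0.50, SE 0.22, limma adjusted p = 0.847) and Spn, which encodes CD43, was lower in every one (-0.31, SE 0.18). Cd34 differed by -0.16 and Cd24a by 0.08. Selp had no probeset with a single symbol and is not analysed here.

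PSGL-1 and CD44 bind selectins only once they carry the right sugars and sulfates. Of the 14 tested enzymes of that work, 0 had an unadjusted p under 0.05 by limma, 4 had positive and 10 negative differences, and the median was -0.04. The smallest p-values belonged to the sulfotransferase Chst2 (-0.27, SE 0.17), the chaperone C1galt1c1 (0.27, SE 0.19), the tyrosine sulfotransferase Tpst1 (-0.38, SE 0.28) and the galactosyltransferase B4galt1 (-0.33, SE 0.41). Fut7, the fucosyltransferase that completes selectin ligands in leukocytes, differed by -0.08 (SE 0.20). The higher Selplg values were thus not accompanied by a difference past the unadjusted threshold in any tested enzyme that modifies it.

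The list of actin linkers and scaffolds of PSGL-1, CD44, ICAM-1 and podocalyxin also holds Syk, Rock1 and Rhoa, which are not linkers. Its median was -0.02 over 8 genes, 0 of them with an unadjusted p under 0.05 by limma. Radixin (Rdx) differed by -0.31 (SE 0.18), Rhoa by -0.29 (SE 0.21), moesin (Msn) by 0.28 (SE 0.23) and ezrin (Ezr) by 0.33 (SE 0.31). The 3 members of the ezrin, radixin and moesin family thus differed in sign. Among 10 hyaluronan and CD44 genes the median was 0.11, and Vcan, the hyaluronan-binding proteoglycan versican, was higher in every G-CSF array (0.54, SE 0.15, limma adjusted p = 0.51). The hyaluronidase Hyal2 differed by 0.29 (SE 0.17), the scavenger receptor Stab2 by 0.17 (SE 0.16) and Hmmr, a second hyaluronan receptor, by 0.15 (SE 0.16).

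Among 8 genes around CD47 the median was 0.10. Calreticulin (Calr), which promotes engulfment when exposed on a cell, was higher in every G-CSF array (0.46, SE 0.19, limma adjusted p = 0.822), and its receptor Lrp1 differed by 0.33 (SE 0.18). Sirpa, which encodes SIRP alpha, differed by 0.34 (SE 0.27) and Thbs2 by 0.16 (SE 0.14). Cd47 itself had the negative values given above.

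Among 9 tested integrin partners of the arrest molecules the median was 0.08. At an unadjusted p under 0.05, 2 were higher (against 2.73% of all genes) and 1 was lower (against 3.3%). Itgb2 (0.99, SE 0.25) and Itgam (1.76, SE 0.44), the chains of Mac-1, were higher in every G-CSF array. Itga4, the alpha chain of the VCAM-1 receptor, was lower in every one (-0.64, SE 0.19, limma adjusted p = 0.575). Itgal, the alpha chain of LFA-1, differed by 0.49 (SE 0.22). Among 21 other adhesion molecules, most of immunoglobulin type, the median was 0.02. Icam2, which binds LFA-1, was lower in every G-CSF array (-0.43, SE 0.16, limma adjusted p = 0.751). The sialomucin endomucin (Emcn) differed by -0.60 (SE 0.34), Cd99l2 by -0.41 (SE 0.28) and Igsf8 by 0.23 (SE 0.16).

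Of 12 tested proteases and inhibitors, 4 had higher values at an unadjusted p under 0.05 (against 2.73% of all genes), and the median was 0.21. Ctsg (cathepsin G) differed by 2.51 (SE 0.41, limma adjusted p = 0.177), Mmp9 by 1.76 (SE 0.37), Prtn3 (proteinase 3) by 0.92 (SE 0.33) and Elane (neutrophil elastase) by 0.96 (SE 0.36). All 4, and Itgam among the integrins, also stand in the neutrophil or progenitor marker lists. The sheddases Adam10 (-0.34, SE 0.34) and Adam17 (-0.25, SE 0.30), which cut CD44, ALCAM and VCAM-1 at the cell surface, had negative values with overlap.

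**Figure D5:**
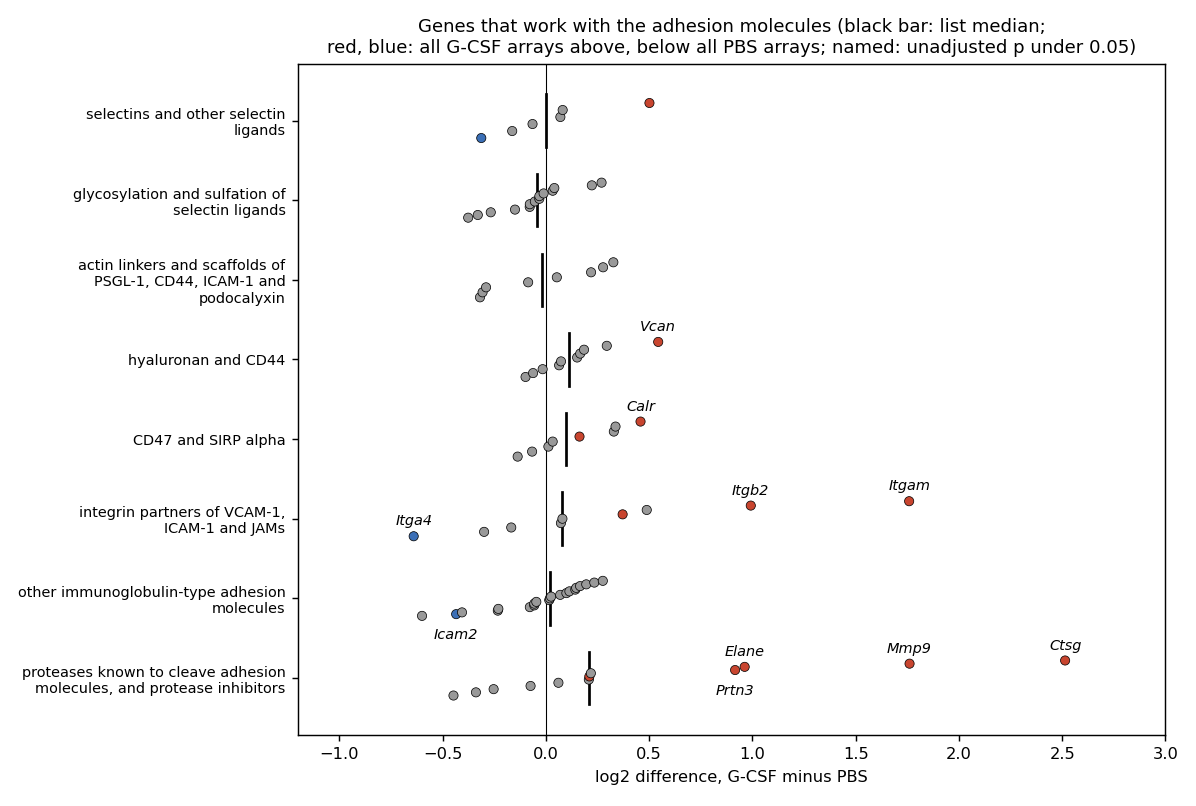
Log2 difference, G-CSF minus PBS (horizontal axis), of the 88 tested genes in 8 lists of partners of the adhesion molecules, 1 point per gene. Black bars mark list medians, red and blue mark genes without overlap between groups. The enzyme and actin linker lists centre near 0, and Ctsg (2.51), Mmp9 (1.76) and Itgam (1.76) lie farthest to the right.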

How the data were processed

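Each group had 3 arrays (PBS or G-CSF). The deposited values are intensities of 35554 probesets on a linear scale. Per the submitters' processing notes, RMA made them, and no version or array set is named there. The analysis took log2 of them. Only the 21789 probesets with 1 gene symbol in the platform annotation were used, with symbols updated through a RefSeq table (GRCm38.p6, 21698 matched). The dimmest 25% by mean over all arrays (log2 up to 5.152) were left out, and the brightest probeset stood for a gene, which left 14994 genes. Groups were compared with limma 3.58.1 in R 4.3.3 (lmFit, eBayes, no covariate), two-sided, with Benjamini-Hochberg adjustment over all genes and a threshold of 0.05. The fit was tested on simulated data, with 250 changed genes at each size of change. It recovered 0.4% of them at a log2 change of 0.5 and 33.6% at a change of 1. At a change of 2 it recovered 78.4%, and at 3 it recovered 90.4%. The differences of the adhesion genes ran from -0.47 to 0.67, sizes at which the fit would miss most true changes. That they did not pass the threshold therefore does not show that they were unchanged.

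The genes and lists were chosen with earlier results of these data known. In each list up to 4 genes with the smallest p were named by rule, and Fut7, Adam10 and Adam17 were added for their roles. Differences are G-CSF minus PBS. Alternatives varied the arrays included, the probeset choice, the dim filter, the normalization, the variance settings, weights for arrays and the replicate block. Figures were drawn with matplotlib 3.10.9.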

Additional observations from a re-analysis of the deposited data

How the results depend on the processing

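Under all 15 alternatives, 0 of the 9 genes passed at an adjusted p under 0.05, and 0 of the partner genes did. Selplg, Cd44, Cd47, Alcam, Jam2, Jam3 and Podxl kept their sign in every alternative that gave a value, and Selplg and Cd44 kept their separation between groups. Jam2 and Vcam1 were not tested with the dimmest 50% of probesets left out.

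Vcam1 turned negative with quantile normalization again (-0.0295), with arrays centred on the median (-0.0172) and with array weights (-0.0975). With 1 array left out it ran from -0.3241 to 0.2752, and Icam1 from -0.1821 to 0.0342.

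The count of members higher at an unadjusted p under 0.05, 1 with all arrays, was 2 with the replicate block (3.15% of all genes) and 0 to 2 with 1 array left out (2.17% to 3.35%). Lower members ran from 0 to 2 when 1 array was left out (2.4% to 4.47%), with 2 without PBS replicate 1 (4.47%). The count lower in every G-CSF array was 1 (Jam3) with quantile normalization again (5.15% of all genes) and 1 with arrays centred on the median (5.09%). It ran from 0 to 5 with 1 array left out, where 5 came without PBS replicate 1 (against 11.6% of all genes). Without any other array it was 0 to 2 (against 9.06% to 10.8%). Partner genes at an unadjusted p under 0.05 ran from 5 to 12 higher (against 2.17% to 3.35% of all genes), with 5 without G-CSF replicate 2. Lower partner genes ran from 1 to 2 (against 2.4% to 4.92%).

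Whether equal replicate numbers pair the arrays was checked by the correlation of deviations from group means, 0.289, 0.019 and 0.193 for numbers 1 to 3. All 3 were positive, and 5 of the 6 arrays correlated best with their own number, so a shared effect of the number is not excluded. The main fit did not take the numbers as pairs. With the replicate block, 4.92% of all genes were lower at an unadjusted p under 0.05 by limma, against 3.3% without it. With the replicate block Cd44 had an unadjusted p of 0.0421 by limma (adjusted p = 0.593). With 3 arrays a group, their number limits the precision.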
